A study of Malus domestica with 16 samples.

Results

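The change that ozone storage made in apple peel whose ethylene perception had been blocked was measured as the ratio of 1-MCP+O3 fruit to 1-MCP fruit. These fruits were never hybridised against each other, so the ratio was built per replicate letter, as the log2 ratio of 1-MCP+O3 over Control minus the log2 ratio of 1-MCP over Control. It used 8 of the 16 labelled samples, which lie on 4 of the 8 two-colour arrays, and it was read on the 59208 sense probes among 133709 probes, a sense probe being one designed for the strand of a predicted apple gene (identifier MDP), with 1 such probe for 59208 of 59243 predicted genes. The question was which ozone changes remained when the fruit could not perceive ethylene.

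All fruits were wild-type Granny Smith apples picked at physiological maturity from 1 orchard, and all groups were kept for 6 months at 0 °C and 95% relative humidity before the peel was taken. Control fruit received no treatment. The 1-MCP fruit were exposed to 1-methylcyclopropene for 24 h at 0 °C before storage, the O3 fruit were stored in air enriched with ozone at 0.3 µL per litre, and the 1-MCP+O3 fruit received both. Each group had 2 RNA extracts, A and B, of peel pooled from 7 apples. The p-values draw on the spread between these pools with 1 degree of freedom. They draw more heavily, with 3.26 prior degrees of freedom, on the variance that limma estimated over all probes. Fruit with and without ozone were held in separate cold rooms, so the room and ozone cannot be told apart. The 1-MCP fruit were also hybridised only on slide 1 and the 1-MCP+O3 fruit only on slide 2, so the slide and ozone cannot be told apart in this ratio. Dye orientation and the Control extract were the same within a letter and drop out of it. Both differ between letters, so a gap between A and B in a ratio to Control is not that of the treated extracts alone.

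1-Methylcyclopropene is a gas that occupies the ethylene receptors of plant cells, so that the fruit no longer responds to the ethylene it makes and ripening slows. Ozone is a strong oxidant that breaks down at the fruit surface into reactive oxygen species. Plant cells meet such oxidants with glutathione S-transferases, which join glutathione to reactive compounds, with quinone reductases, which reduce quinones without releasing radicals, and with phenolics and terpenoids, some of which the peel oxidises when superficial scald, a browning disorder of stored apples, develops.

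Of the 176026 non-control spots on each array, between 36.9% and 54.9% stood well above background in a given channel of the 4 arrays used. With 4 arrays, precision is limited by their number. Marker genes of peel were looked up, and all 18 probes for cuticle and epidermal wax genes were well above background in both 1-MCP arrays and in both 1-MCP+O3 arrays. Probes for the photosynthesis genes of green tissue were well above background in 76 of 76 cases in 1-MCP and 73 of 76 in 1-MCP+O3. The 6 probes whose function names mention pollen, seed storage or root were above background too. These names came mostly from the study's table, whose rows are mostly genes raised by 1-MCP. Of its 1477 genes, 1475 were well above background in both 1-MCP arrays and 1452 in both 1-MCP+O3 arrays. Over all 59208 sense probes it was 32128 and 30957. The markers therefore describe the peel and do not test it.

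Ozone raised 1199 sense probes and lowered 1220 in 1-MCP-treated fruit at the threshold of the study's methods, an unadjusted limma p under 0.01, which is 4.09% of the probes tested. None of them passed Benjamini-Hochberg adjustment at 0.05 over all probes, where the lowest adjusted p was 0.265, while 7528 had an unadjusted p under 0.05. Called probes are therefore single-probe candidates, and "rose" and "fell" below refer to the unadjusted threshold. With median centring in place of loess 784 rose and 103 fell, with the processed scanner signals 975 rose and 587 fell, and with the 4 arrays unpaired 264 rose and 162 fell. A change of at least 2-fold was reached by 466 of the raised and 388 of the lowered probes. Across sense probes, which are not independent replicates, replicates A and B correlated with a Pearson r of 0.361.

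**Figure D1:**
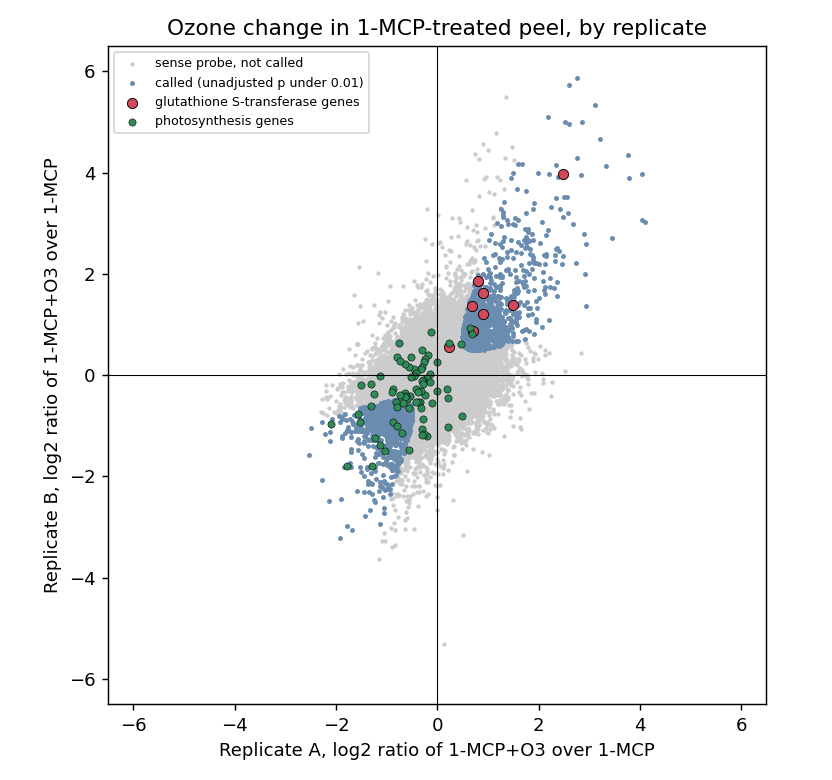
Log2 ratio of 1-MCP+O3 over 1-MCP in replicate A (horizontal axis) and replicate B (vertical axis), 1 point per sense probe, with called probes in blue, the 8 glutathione S-transferase genes in red and the 76 photosynthesis genes in green. The raised probes reach a mean of 4.32 and the lowered ones a mean of -2.57, and all 8 glutathione S-transferase genes lie above 0 in both replicates.

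The raised probes were mostly ones that stood below Control in 1-MCP fruit. Over the 1199 raised probes the median log2 ratio to Control was -0.74 in 1-MCP fruit and 0.22 in 1-MCP+O3 fruit, and 1025 of them were below Control with 1-MCP alone. Over the 1220 lowered probes the order was turned, with a median of 0.48 in 1-MCP fruit and -0.36 in 1-MCP+O3 fruit, and 1029 were above Control with 1-MCP alone. These ratios are the parts of which the contrast is made, so they describe it and do not test it. In fruit without 1-MCP, ozone over Control had a median of 0.64 over the raised and -0.37 over the lowered probes, against 0.00 over all sense probes. That comparison called 1012 sense probes higher and 437 lower (2.45% of those tested), and it was made with the same Control extracts.

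The 10 largest rises all belonged to genes without a function name in the sources used here. Their mean log2 ratios lay between 3.76 and 4.32, and each of the 10 was below Control in both 1-MCP extracts. MDP0000287459, among the most even of them, had a log2 ratio to Control of -5.27 (A) and -5.45 (B) in 1-MCP fruit and of -1.22 (A) and -1.48 (B) in 1-MCP+O3 fruit. The groups did not overlap, and the ozone change was 4.05 in A and 3.97 in B, with a mean of 4.01 ± 0.06 (SD, n = 2; adjusted p = 0.265, limma). MDP0000302905 rose by the largest mean, 4.32, but its replicates were further apart, at 2.76 in A and 5.87 in B. The difference between replicates lay in the ratio of 1-MCP over Control, which was -1.97 (A) and -4.88 (B), while 1-MCP+O3 over Control gave 0.80 and 0.99.

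Most of the glutathione S-transferase genes rose. The list holds 8 genes that the study drew in its network scheme from these samples, so it is not independent evidence of a direction. Of the 8, 7 rose and none fell, against 2.03% of sense probes called higher and 2.06% called lower, and the median log2 ratio was 1.16 against 0.00 over all sense probes. The 8 genes had a median of -0.85 relative to Control in 1-MCP fruit, 0.21 in 1-MCP+O3 fruit and 1.15 in O3 fruit. By the second route through O3 fruit, described at the end, 3 of the 8 passed, and without moderation of the variances none did. With the arrays unpaired 3 passed, falling to 1 without 1-MCP replicate B or without 1-MCP+O3 replicate B, and no member was called lower in any of these fits.

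MDP0000178304, a GSTU8-like transferase of the plant-specific tau class, changed most. Relative to Control it was at -3.14 (A) and -4.64 (B) in 1-MCP fruit and at -0.65 (A) and -0.67 (B) in 1-MCP+O3 fruit. Both 1-MCP extracts were thus far below both 1-MCP+O3 extracts, and the ozone change was 3.23 ± 1.05 (SD, n = 2; adjusted p = 0.274, limma). In fruit without 1-MCP the same gene was 2.47 (A) and 1.22 (B) above Control under ozone.

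MDP0000256360, a GSTF8-like transferase of the phi class, was the most even in the list. It stood at -1.14 (A) and -1.36 (B) relative to Control in 1-MCP fruit, and at 0.35 (A) and 0.03 (B) in 1-MCP+O3 fruit. The groups did not overlap, and the mean ozone change was 1.44 ± 0.07 (SD, n = 2; adjusted p = 0.274, limma).

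Other tau-class members rose less. The GSTU8-like genes MDP0000805474 and MDP0000766223 rose by 1.33 and 1.26, the GSTU25-like gene MDP0000722969 by 1.06 and the GSTU21-like gene MDP0000566567 by 1.03. The 1-MCP signal of MDP0000805474 was well above background on 1 of its 2 arrays. The 3 GSTU8-like genes share a name, and how far their probes tell close copies apart was not tested. The GSTF12-like gene MDP0000252292 had a log2 ratio of 0.70 in A and 0.87 in B (adjusted p = 0.300, limma). Its 1-MCP signal failed to stand well above background in A and in B, so the size of this rise was not measured exactly. The In2-1 protein gene MDP0000188674, a relative of these transferases, had a log2 ratio of 0.24 in A and 0.56 in B and was not called.

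None of the 8 genes passed the test of the difference between the ozone change with 1-MCP and without it. That test set the ratio of 1-MCP+O3 over O3 against the ratio of 1-MCP over Control. Over all sense probes it called 467 higher and 451 lower (1.55%). Across these probes A and B of the difference correlated with a Pearson r of -0.0742, and of -0.144 with both ratios taken through Control. Over the array as a whole the letters thus did not repeat each other in this difference. The lowest p of any glutathione S-transferase was 0.0178 in limma (MDP0000188674, difference -0.70). A p that misses the threshold does not show that the 2 ozone changes were equal, and the differences ranged from -0.70 to 1.20.

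**Figure D2:**
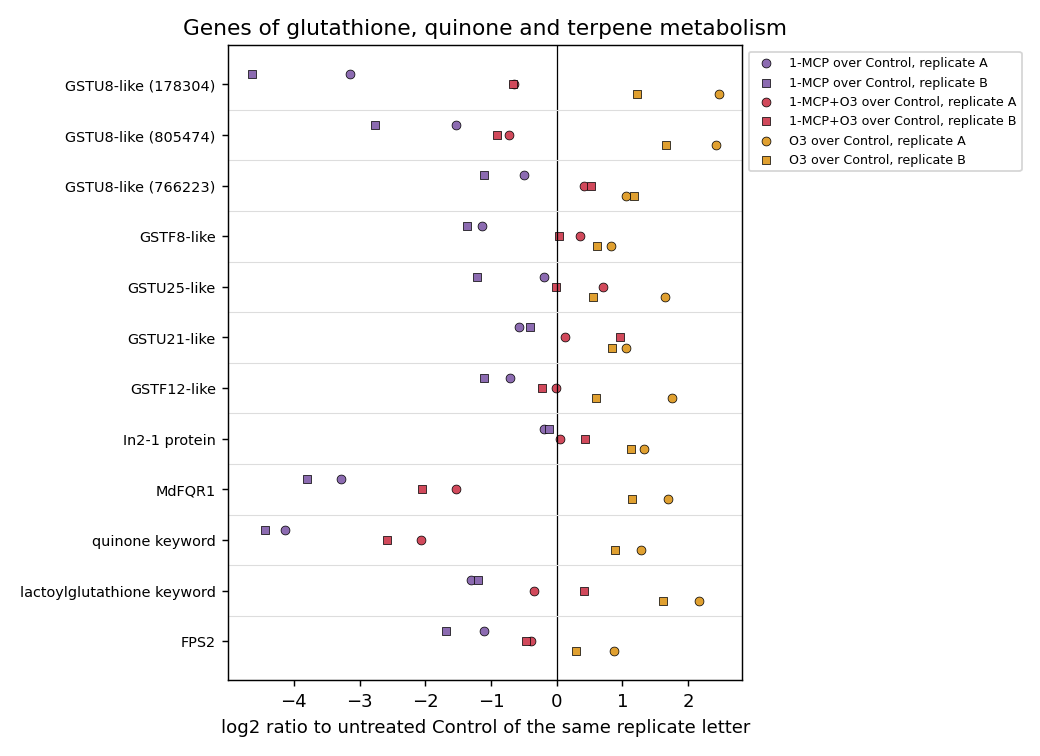
Log2 ratio to Control (horizontal axis) of 1-MCP fruit (purple), 1-MCP+O3 fruit (red) and O3 fruit (yellow) for 12 genes, with replicate A as circles and replicate B as squares. In all 12 genes both 1-MCP+O3 points lie to the right of the 1-MCP point of the same letter, for GSTU8-like MDP0000178304 by 2.49 and 3.97. The genes were picked from called rises and the transferase list, so this shared direction follows in part from the choice.

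MdFQR1 (MDP0000393227), which codes for a flavodoxin-like quinone reductase that reduces quinones by 2 electrons at once, is shown with the primer pair the study designed for its transcript, because it gave 1 of the most even rises. The pair for MdBGal1, a beta-galactosidase gene described further on, is set beside it. Capitals are not used because no position within the primers matters to the result.

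MdFQR1 forward: gcataagttcccgcaccata
MdFQR1 reverse: ccgctggaattttctacagc
MdBGal1 forward: tcaggtaccacattcctcgat
MdBGal1 reverse: aaccaacgaaatccttgacg

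In 1-MCP fruit MdFQR1 was at -3.28 (A) and -3.80 (B) relative to Control, and in 1-MCP+O3 fruit at -1.53 (A) and -2.05 (B). Ozone raised it by 1.75 in A and 1.75 in B (adjusted p = 0.265, limma), and both extracts with ozone still stood below Control. The second route, described at the end, gave 2.45 in A and 3.09 in B. The equal values of the first route therefore do not show how exactly the rise was measured. In fruit without 1-MCP ozone took the same gene 1.70 (A) and 1.15 (B) above Control. Every extract with ozone was above the extract of the same letter and fruit type without it.

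MDP0000273436, which carries the keyword quinone in the study's network table, is not known here to be a quinone reductase. Its log2 ratio to Control was -4.14 (A) and -4.44 (B) in 1-MCP fruit and -2.06 (A) and -2.58 (B) in 1-MCP+O3 fruit. The groups did not overlap, and the ozone change was 1.97 ± 0.16 (SD, n = 2; adjusted p = 0.265, limma). MDP0000511650, which carries the keyword glutathione, had an ozone change of 1.45 in A and 3.90 in B, and its limma p of 0.00998 lay just under the threshold. MDP0000275060, which carries the keyword lactoylglutathione, rose by 0.96 in A and 1.62 in B.

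FPS2 (MDP0000198736), a farnesyl diphosphate synthase that makes the precursor of sesquiterpenes such as alpha-farnesene, rose by 0.72 in A and 1.22 in B. MdAFS1 (MDP0000199152), the alpha-farnesene synthase, was at -4.30 (A) and -1.0 (B) relative to Control in 1-MCP fruit and at -4.37 (A) and -1.31 (B) in 1-MCP+O3 fruit. The change in MdAFS1 was -0.07 in A and -0.31 in B and was not called, although its ratio to Control differed widely between the letters in each group. Chalcone synthase (MDP0000432621), the first enzyme of the flavonoid branch, had a log2 ratio of 0.80 in A and 1.18 in B (adjusted p = 0.289, limma). Its signal was not well above background in either 1-MCP array, so the size of this rise was not measured exactly.

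Polyphenol oxidase (MDP0000699845), which oxidises phenolics to brown quinones, was far below Control with 1-MCP alone. It was at -3.21 (A) and -5.78 (B) in 1-MCP fruit and at -2.09 (A) and -2.21 (B) in 1-MCP+O3 fruit. Both differences were positive, at 1.12 and 3.57, but they were unequal and the gene was not called (adjusted p = 0.389, limma). PAD4 (MDP0000770174), a lipase-like regulator of salicylic acid defence in Arabidopsis, changed by 0.42 in A and 3.10 in B, and the peroxidase gene MdPOX (MDP0000209189) by 0.28 in A and 2.46 in B. Neither was called. The defence list, from the same table as the photosynthesis list below, had 0 rises and 2 falls among 28 genes. Falls made up 7.14% of the defence list, where 11.8% fell and 1.08% rose over all 1477 genes it was drawn from. Neither direction was therefore more frequent among the defence genes than in that larger set. In PAD4 and in MdPOX the 1-MCP extracts lay on opposite sides of Control.

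MdBGal1 (MDP0000416548), a beta-galactosidase that trims galactose from cell wall polymers during softening, rose but stayed below Control. It was at -3.76 (A) and -4.03 (B) in 1-MCP fruit and at -2.78 (A) and -3.13 (B) in 1-MCP+O3 fruit, a rise of 0.98 in A and 0.89 in B (adjusted p = 0.279, limma). In fruit without 1-MCP, ozone over Control was 0.60 in A and -1.71 in B, so the letters went opposite ways there. The difference between the ozone changes with and without 1-MCP was called and came to 1.21 (adjusted p = 0.916, limma), but it was not called when both ratios were taken through Control (1.49). Of the 7 genes the study took to RT-qPCR, which it chose for changing on these arrays, MdFQR1 and MdBGal1 rose and none fell. Over all sense probes 2.03% rose and 2.06% fell. The 5 reference genes, chosen by the study for not changing on these arrays, gave mean log2 ratios from -0.42 to 0.48, and none was called.

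Photosynthesis genes moved the other way. The list was matched by words in the function names of the study's table, whose rows are mostly genes raised by 1-MCP: of its 1477 genes with a sense probe, 1190 were called higher in 1-MCP over Control, against 2.26% of all sense probes. Since that ratio enters the contrast with a minus sign, such a list leans to lower values by its choice, and over all 1477 genes 16 rose (1.08%), 174 fell (11.8%) and the median was -0.23. Within the photosynthesis list, 2 of 76 genes rose and 16 fell, and the median was -0.42. The genes stayed well above Control in both groups, with a median log2 ratio of 2.83 in 1-MCP fruit and 2.27 in 1-MCP+O3 fruit. With median centring 5 fell, with single-channel intensities 7 and with scaling between arrays 28. With the arrays unpaired 3 fell, and without 1-MCP replicate A, for one, 2. The Control signal was well above background on all 4 arrays for 44 of the 76 genes and on none for 13, and of the 16 falls 7 were among the 44.

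Of the 16 falls, 11 were in genes of the light-harvesting antenna, the proteins that gather light for the photosystems. The antenna's share of the whole photosynthesis list was not counted, so no concentration of falls in the antenna can be read from this. LHCB4 (MDP0000240138), an antenna protein of photosystem II, was at 3.86 (A) and 2.82 (B) above Control in 1-MCP fruit and at 2.64 (A) and 1.57 (B) in 1-MCP+O3 fruit, with Control well above background on all 4 arrays. It fell by 1.23 in A and 1.25 in B (adjusted p = 0.274, limma), and the groups did not overlap. Ozone over Control was not called in fruit without 1-MCP, with a mean of -0.10 and an SD of 0.19. The difference between the ozone changes was called by both routes, at -1.20 and, through Control, -1.13.

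LHCA3 (MDP0000269859), an antenna protein of photosystem I, was at 3.21 (A) and 3.29 (B) above Control in 1-MCP fruit and at 1.43 (A) and 1.49 (B) in 1-MCP+O3 fruit. The difference of these ratios was -1.79 ± 0.02 (SD, n = 2; adjusted p = 0.265, limma). The 1-MCP and 1-MCP+O3 signals were well above background on both arrays, but none of the 4 Control signals was. The ratios to Control are therefore bounds, and their difference and its SD are not exact. As single-channel log2 intensities, 1-MCP fruit were at 9.26 (A) and 9.07 (B) and 1-MCP+O3 fruit at 8.37 (A) and 7.36 (B). Control and O3 were not well above background on the arrays of O3 over Control either, so no ozone change can be read for this gene in fruit without 1-MCP.

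The other probes named LHCA3 fell as well, MDP0000866655 at -1.54 and MDP0000150729 at -1.26, and the LHCI type II chlorophyll a/b binding gene MDP0000813922 fell by 2.10 in A and 0.96 in B. Control was well above background for MDP0000813922 on 1 of 4 arrays. Other antenna genes of photosystem II were LHCB3 (MDP0000196762) at -1.22 and LHCB6 (MDP0000327940) at -1.17, with Control well above background on 0 and 2 of 4 arrays. PSBO-2 (MDP0000858039), a subunit of the oxygen-evolving complex, was at -0.90, and PORA (MDP0000831656), which makes chlorophyllide in the light, at -0.92. The exceptions were HCF152 (MDP0000457380), an RNA-binding protein of the chloroplast in Arabidopsis, at 0.78, and MDP0000320796, named for an O-acetyltransferase and LHB1B2 together, at 0.75.

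In the test of the difference between fruit types, 24 of the 76 photosynthesis genes had a lower ozone change with 1-MCP than without it and 1 a higher one, where 0.762% and 0.789% of all sense probes were called in these directions. The same lean applies, since 1-MCP over Control enters this test with a minus sign too, and over those 1477 genes 130 were called lower and 23 higher. For 43 of the 76 genes the Control and O3 signals of this test were well above background on every array, and 9 of the 24 were among them. Taken through Control the test called 5 of the 76 lower, 3 of them shared with the 24, and 0 higher. Photosynthesis genes that the text of the study names had mean ozone changes in 1-MCP fruit from -0.70, in the rubisco small chain gene MDP0000185022, to 0.10 in PSAN, and none was called. Among them PSBQ-2 (MDP0000715912) was at -0.48, PSAD-2 (MDP0000700880), a stromal subunit of photosystem I, at -0.22 and rubisco activase (MDP0000223905) at 0.03.

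**Figure D3:**
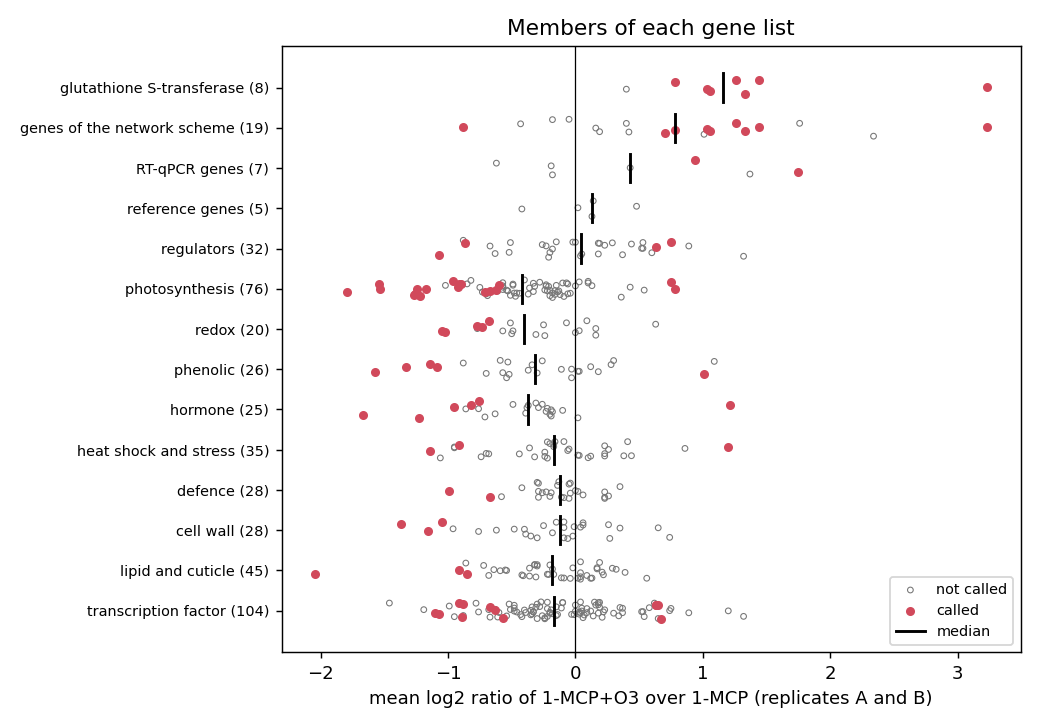
Mean log2 ratio of 1-MCP+O3 over 1-MCP for each member of 14 gene lists (number of members in parentheses), with called members filled in red and the median as a bar. The glutathione S-transferase list has its median at 1.16 and the photosynthesis list at -0.42, while the 5 reference genes lie between -0.42 and 0.48.

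Several of the other named falls came from genes whose replicates were uneven. FLA2 (MDP0000318193), a fasciclin-like arabinogalactan protein of the cell surface, was at 1.50 (A) and 1.35 (B) relative to Control in 1-MCP fruit and at 0.08 (A) and -1.43 (B) in 1-MCP+O3 fruit. It fell by 1.43 in A and 2.78 in B. In O3 fruit without 1-MCP it was at -4.30 in A and 0.24 in B, so the 2 letters disagreed there. The same unevenness, a ratio of O3 over Control far lower in A than in B, was seen in FAD5 (MDP0000602648), a fatty acid desaturase of plastids (-3.40 and 0.24), and in the laccase gene LAC6 (MDP0000299358) (-3.71 and 0.05). FAD5 and LAC6 fell by a mean of 2.04 and 1.57 in 1-MCP fruit.

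MDP0000138851, a flavin-containing monooxygenase family gene, was more even. It stood at 3.97 (A) and 3.45 (B) above Control in 1-MCP fruit and at 1.87 (A) and 2.14 (B) in 1-MCP+O3 fruit, and 2 of the 4 Control signals were well above background. The ozone change was -1.70 ± 0.57 (SD, n = 2; adjusted p = 0.279, limma). Among unnamed genes MDP0000339174 fell most, by 1.92 in A and 3.22 in B, followed by MDP0000339175 with 1.79 in A and 2.99 in B.

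**Figure D4:**
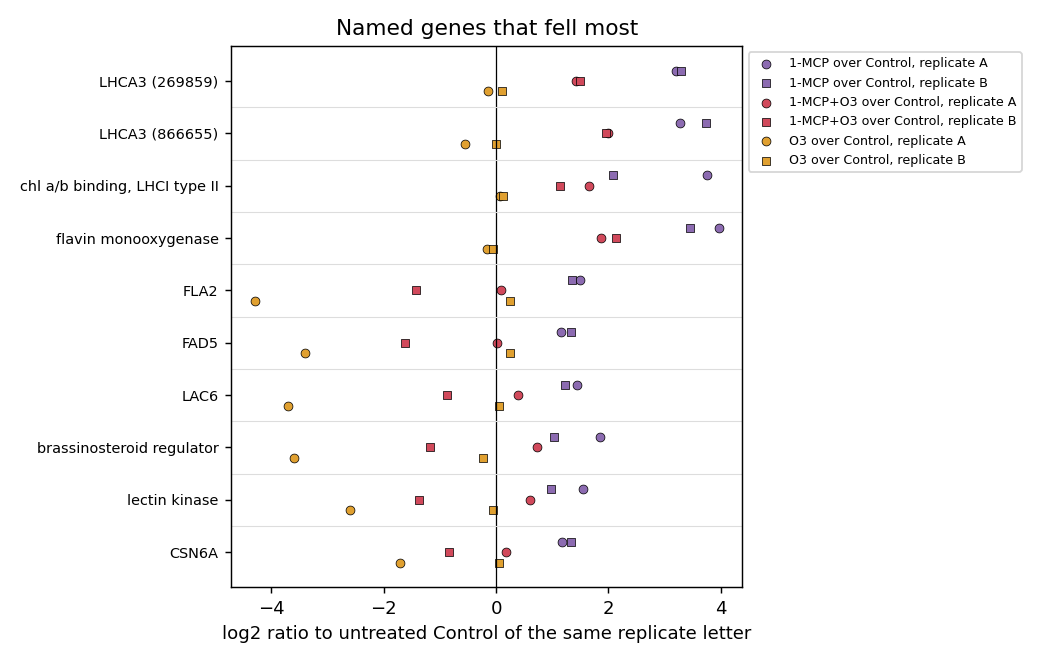
Log2 ratio to Control (horizontal axis) of 1-MCP fruit (purple), 1-MCP+O3 fruit (red) and O3 fruit (yellow) for the 10 named genes that fell most, with replicate A as circles and replicate B as squares. The red points of LHCA3 MDP0000269859 lie at 1.43 and 1.49, left of the purple points at 3.21 and 3.29 (with Control not well above background), while the yellow points of FLA2 lie far apart at -4.30 and 0.24.

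The remaining lists come from the same table, so the same lean applies, and their counts are to be read beside its 1.08% of rises and 11.8% of falls. In the redox list, 5 of 20 genes fell and none rose, and all 5 were putative peroxidases, with MDP0000289293 at -1.02 and MDP0000142485 at -1.05. How many of the 20 are peroxidases was not counted, so no concentration of falls in peroxidases can be read from this. The phenolic list had 1 rise and 4 falls among 26 genes. The 2 flavonoid 3'-monooxygenase genes called in it went opposite ways, with TT7 MDP0000127182 at a mean of 1.01 and TT7 MDP0000616265 at a mean of -1.09. Flavonol synthase (MDP0000260404) fell by 0.98 in A and 1.29 in B.

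Hormone genes gave 1 rise and 5 falls among 25. The rise was an auxin-responsive family gene (MDP0000654738), at a mean of 1.21, which was above Control in every extract. The falls included 2 small auxin up RNA genes and SLY1 (MDP0000449918), an F-box protein of gibberellin signalling, at -1.12 in A and -0.79 in B. SRG1 (MDP0000169344), a senescence-related oxygenase, rose by 0.77 in A and 1.62 in B, while HSP101 (MDP0000217508), a heat shock chaperone, fell by 1.22 in A and 1.07 in B. Cell wall genes gave 3 falls among 28, with the expansin gene EXPA15 (MDP0000670959) at -1.33 in A and -0.98 in B.

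Of 32 transcription factor genes that the study listed as regulators, 2 rose and 2 fell, where 2.03% and 2.06% of all sense probes did. The ethylene response factor gene MDP0000127134 was at -1.98 (A) and -3.20 (B) relative to Control in 1-MCP fruit and at -1.36 (A) and -2.32 (B) in 1-MCP+O3 fruit, a rise of 0.62 and 0.88. The second ethylene response factor gene, MDP0000932292, went the other way, by -0.98 in A and -1.16 in B, and its ratio of O3 over Control was -1.47 in A and -0.86 in B. A WOX homeobox gene (MDP0000304650) rose by 0.66 in A and 0.60 in B, and a Trihelix gene (MDP0000252463) fell by 0.97 in A and 0.77 in B. ERS1 (MDP0000242413), an ethylene receptor, had a log2 ratio to Control of -3.0 in A and -3.18 in B with 1-MCP alone, and ozone changed it by -0.80 in A and 0.44 in B, which was not called.

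The 1-MCP+O3 extracts were also hybridised against O3 fruit, which gives a second route to the same ratio (1-MCP+O3 over O3 plus O3 over Control minus 1-MCP over Control). It called 981 sense probes (1.66%), 536 higher and 445 lower, and it shares the 1-MCP arrays with the first. Across sense probes its replicates A and B correlated with a Pearson r of 0.0142, against 0.361 for the first route. By this route MdFQR1 was at 2.77, well apart from its 1.75 by the first. GSTU8-like MDP0000178304 was at 3.04, GSTF8-like MDP0000256360 at 1.35 and LHCA3 MDP0000269859 at -1.65, the last again with Control and O3 not well above background. The ratio of O3 over Control, measured once within slide 1 and once through slide 2, should be the same by design. The difference between both measurements was called for 205 sense probes (0.346%), where the threshold itself stands for 1%. Its replicates A and B correlated with a Pearson r of -0.319. Gaps of opposite sign in the letters average out and widen the spread, so the test hardly calls them. The low count therefore does not show that the slides gave the same values.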

How the data were processed

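Peel RNA was measured on 8 two-colour arrays with a dye switch, 2 per comparison. Per the file headers, the authors extracted spot intensity values with Agilent Feature Extraction, and the deposited intensity columns were used before normalisation. Median spot signals were background-corrected (normexp, offset 50), normalised within arrays by loess, and expressed as log2 ratios with R 4.3.3 and limma 3.58.1. Control spots and outlier spots were left out and spots of a probe were averaged. The per-letter differences (A, B) were fitted with lmFit and eBayes (1 residual and 3.26 prior degrees of freedom), called at an unadjusted p under 0.01, and adjusted by Benjamini-Hochberg over all probes. The letters pair the arrays because each letter shares a Control extract and a dye orientation: deviations from the group means correlated by 0.742 between the 2 comparisons of the contrast. The fit was run on simulated data, drawn with independent A and B from the variance model that limma fitted here. That run checks the fitting steps and does not cover dye, slide or shared errors of the real arrays.

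Named genes were the 10 largest rises and falls among called probes well above background in the higher group, the same among genes with a function name, and the genes the study names. Of the unnamed ones 2 rises and 2 falls are printed in the results, and MDP0000246999 and MDP0000265580 among the flagged genes. Function names came from the study's tables, and 1143 sense probes carried one. The members and lists were chosen with earlier results of these data known. Probe sequences and genome positions were not used here. Alternatives covered the background, normalisation, filter, route, pairing, moderation, threshold and left-out arrays.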

Additional observations from a re-analysis of the deposited data

Results flagged for a closer look

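Named genes whose ozone change differed between fruit with and without 1-MCP, by the test of the difference at an unadjusted limma p under 0.01, are given here as the log2 difference (with 1-MCP minus without). No probe among them passed adjustment over all probes, and over all sense probes A and B of this difference had a Pearson r of -0.0742. Of the 20 genes below, 9 were also called when both ratios were taken through Control, with the same direction in all 20. These were MDP0000246999, MDP0000287459, MDP0000265580, MDP0000138851, LHCA3 and the YABBY, LBD and TALE genes, with the MYB gene MDP0000602739. The unnamed genes MDP0000246999 and MDP0000287459 had differences of 2.65 and 2.47, and both also rose within 1-MCP fruit. Among genes the study names, a YABBY gene (MDP0000261432) was at 1.75, MdBGal1 (MDP0000416548) at 1.21 and the ethylene receptor gene ERS1 (MDP0000242413) at 1.20. A positive difference is not itself a rise within 1-MCP fruit. There the YABBY gene changed by a mean of 0.19 and ERS1 by -0.18, and neither was called. Ozone over Control in fruit without 1-MCP had a mean of -1.25 in the YABBY gene and -1.11 in ERS1.

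Among the listed regulators, the differences were 1.31 for an LBD gene (MDP0000155138), 0.90 for the ethylene response factor gene MDP0000127134, 0.90 for a ZF-HD gene (MDP0000253357), 0.84 for an ARF gene (MDP0000194603), 0.82 for a MYB gene (MDP0000602739), 0.75 for a TCP gene (MDP0000374900) and 0.61 for a WOX gene (MDP0000304650). The MYB gene was not well above background in either 1-MCP array. Regulators with a lower ozone change under 1-MCP were a MYB gene (MDP0000159011) at -0.73, a TALE gene (MDP0000280307) at -0.92 and a BZIP gene (MDP0000239026) at -1.20. Within 1-MCP fruit only MDP0000127134 and MDP0000304650 of these regulators were called. The others were not, with mean ozone changes there of 0.53 for the LBD, 0.18 for the ZF-HD, -0.18 for the ARF and -0.15 for the BZIP gene, for example.

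Photosynthesis genes on this side were PSAD-2 (MDP0000700880) at -0.68, the LHCI type II gene MDP0000813922 at -1.42 and LHCA3 (MDP0000269859) at -1.63. Control was well above background for the LHCI type II gene on 1 of the 4 arrays of the contrast and for LHCA3 on 0, and O3 on none for either, so their values without 1-MCP were not measured and the differences rest on signals at background. The flavin-containing monooxygenase gene MDP0000138851, for which O3 was not well above background either, was at -1.48 and the unnamed gene MDP0000265580 at -1.61. With 2 extracts a group, no test for a sample that stands apart could be made.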

How the results depend on the processing

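The count of called sense probes, 2419, depended on the processing. It was 1562 with the processed signals, 887 with median centring, 981 by the second route and 618 without moderation, and at other thresholds 7528 (p under 0.05), 330 (p under 0.001), 854 (also at least 2-fold) and 0 (adjusted p under 0.05). With no replicate block it was 426. Rises made up 49.6% of calls in the contrast as reported, 62.4% with the processed signals, 88.4% with median centring, 62.0% with no replicate block and 64.6% in a joint fit of 8 arrays, and the cause was not tested. Leaving out 1 replicate letter or 1 array gave 180 to 2314 calls. Without 1 array, in the unpaired fit that called 426 in full, the counts were 180 to 396, and the lowest was without 1-MCP replicate B. Adjusted p-values under 0.05 were reached by 503 probes with the processed signals, 64 with median centring, 158 after the filter on dim probes, 11 in the joint fit and 980 with a robust intensity trend. The interaction called 547 probes when routed through Control, against 918.

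None of the 50 called named genes changed direction under the 18 alternative fits. Of the 50, 27 stayed called by the second route, 18 with no replicate block and 4 without moderation. Of the 8 glutathione S-transferase genes, 3 were called by the second route, 3 with the processed signals and 3 in the joint fit. With no replicate block 3 were called, without moderation 0 and with single-channel intensities 4. Their median stayed between 0.79 and 1.56, and it was 1.29 without replicate A and 0.79 without replicate B. The photosynthesis median was -0.17 with median centring and -0.62 with scaling between arrays. The number of photosynthesis genes that fell, 16, was 7 with the processed signals, 3 with no replicate block and 2 without moderation. In the unpaired fit, leaving out an extract of 1-MCP fruit gave 4 (A) and 1 (B) transferase calls and 2 (A) and 6 (B) photosynthesis falls, and leaving out an extract of 1-MCP+O3 fruit gave 2 (A) and 1 (B) calls and 5 (A) and 2 (B) falls. Leaving out 1 array left 1 sample in a group, which was assumed to vary like the others. Leaving out a letter left 1 extract in every group, so that fit gauged the spread between arrays and not between extracts. The joint fit of 8 arrays counted repeated hybridisations of an extract as separate values.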
